A study of Mus musculus with 2 samples.

Results

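The collagen genes of the mouse were followed through the cells of chimeric embryos in which *Gata1*- cells develop beside wildtype cells. Every gene column whose symbol is Col, a number, a and a further number was taken, without regard to its values, and this gave 44 of the 29453 gene columns. The embryos were made by injecting male tdTomato-expressing embryonic stem cells (ESCs) into wildtype C57BL/6 blastocysts, and the ESCs came from a single clone with a frameshift in *Gata1*, the X-linked gene of a transcription factor that red cell formation needs. The tdTom+ fraction therefore holds *Gata1*- cells of 1 clone, and the tdTom- fraction holds wildtype host cells of the same 6 pooled embryos. The labels date the tdTom+ sample to embryonic day 8.5 and the tdTom- sample to embryonic day 8.6, although both were sorted from the same embryos. Each fraction gave 1 droplet library, so the fractions were compared without replicates and without a test, and all 95% intervals below are exact and cover counting error only. Where 2 values follow each other for a group of cells, the first is that of tdTom+ and the second that of tdTom- cells.

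Collagens are triple helices of 3 polypeptide chains, and each chain has a gene of its own. Fibrillar chains build the fibres of mesenchyme, tendon and bone, while type IV chains form the sheet-like network of basement membranes, on which endothelium and epithelia rest. Many chains are made only into helices with a set partner, so that 2 genes of a type are often needed in the same cell. At this stage of gestation the embryo has no bone, and its matrix is mostly basement membrane and loose mesenchyme.

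The tables held 8981 tdTom+ and 9252 tdTom- barcodes, of which 18 were shared by the libraries, and 17309 cells were kept after doublets had been left out. The cells had a median of 17336 spliced unique molecular identifiers (UMIs, 1 per captured RNA molecule) in tdTom+ and 15770.5 in tdTom- cells. Clustering without the collagen genes and their pathway gave 34 clusters, which were named from marker genes. Mesenchymal-like cells numbered 2493 in tdTom+ and 2051 in tdTom-, endothelial-like cells 522 and 374, endodermal-like cells 361 and 511, neural-like cells 1388 and 2083, and blood cells 1614 and 1476. Levels by class are given for these 5 classes, and those of other cells by cluster. The neural class includes a cluster of 429 and 497 cells that raised *Sox2*, *Sox3* and *Hes5* but was led by *Epha5*, *Fgf8* and the caudal genes *Nkx1-2*, *Cdx1* and *Cdx4*, with no listed neural marker among its leading genes. The blood fractions are not like for like: 1326 tdTom+ cells formed a progenitor cluster with *Myb* and *Gata2* among its leading genes, and 1389 tdTom- cells an erythroid cluster led by embryonic globins. As a check of the labels, spliced *Gata1* was at 27.1 and 132 CPM in blood (CPM: UMIs of a gene per 1000000 spliced UMIs of the same cells), with 58.4% and 8.10% of its UMIs unspliced. The RNA was thus lower in the library labelled *Gata1*-, not absent, and a frameshift need not remove it. Over all kept cells outside blood, spliced *Gata1* was at 0.44 and 1.87 CPM, from 53 and 213 UMIs. How much of that came from blood RNA was not tested. The 12 blood markers summed to between 166 and 220 CPM in the 4 other tdTom+ classes and to between 846 and 1492 CPM in the 4 other tdTom- classes. In blood itself the same markers summed to 16335 and 90312 CPM. The sums outside blood thus do not show which library held more blood RNA there. The part of blood RNA in the results below was not tested except where a value is given.

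Spliced UMIs of collagen genes numbered 129528 over the kept cells, and 63661 further UMIs were unspliced. Of the 44 genes, 43 had at least 1 spliced UMI, 17 had at least 1000, and *Col6a5* had 0 in 17309 cells, which allows a share of up to 0.0173% of cells with a UMI. UMIs are counted at the 3′ end and were not divided by gene length, so shares of UMIs below are shares of molecules captured, not of protein. The 11 fibrillar genes took 33.5% of the spliced collagen UMIs, the 6 basement membrane genes 31.1%, the 2 multiplexins 21.7%, the 9 fibril-associated genes 4.71%, the 4 transmembrane genes 4.53% and the 3 anchoring and other genes 3.86%. The 6 beaded-filament genes took 0.515% and the 3 short-chain network genes 0.0703%.

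The summed level of the 44 genes was highest, among the 5 classes, in endodermal cells, at 743 (95% interval 721 to 766) and 1171 CPM (1147 to 1196). Endothelial cells had 676 (659 to 693) and 731 CPM (709 to 752), and mesenchymal cells 619 (612 to 626) and 790 CPM (781 to 800). Neural cells were lower, at 262 (256 to 269) and 289 CPM (283 to 295), and the neural cells without the cluster led by *Epha5* had 273 and 299 CPM. Blood was lowest, at 123 (120 to 127) and 48.0 CPM (45.5 to 50.6). Over both libraries, the mesenchymal level was above the neural level by a log2 fold of 1.32 (1.29 to 1.34) and above the blood level by 2.95 (2.91 to 2.99). It lay below the endodermal level, at a log2 fold of -0.51 (-0.54 to -0.48), and was -0.025 without 20 parietal endoderm-like cells described below, whose loss brought the tdTom- endodermal level to 674 CPM. Against endothelial cells the pooled fold was -0.01 (-0.04 to 0.02), but the libraries differed: the mesenchymal level was the lower in tdTom+ and the higher in tdTom- cells, with intervals that did not overlap.

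The makeup differed more than the sum. Fibrillar genes gave 50.2% of collagen UMIs in tdTom+ and 52.4% in tdTom- mesenchymal cells, but 5.71% and 7.56% in endothelial cells. Basement membrane genes gave 55.7% and 56.1% in endothelial cells and 57.1% and 76.8% in endodermal cells, against 23.5% and 20.3% in mesenchymal cells. Of the 8674 collagen UMIs of tdTom- endodermal cells, 3856 came from the 20 parietal endoderm-like cells. Those cells held almost only *Col4a1* and *Col4a2* among collagen genes, so the 76.8% rests in part on them. In neural cells the multiplexins led, with 46.1% and 44.0%. The heat map of levels shows this as blocks, with most fibrillar rows bright in mesenchyme, *Col4a1* and *Col4a2* bright in endothelium and endoderm, and *Col18a1* bright everywhere but in tdTom- blood.

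**Figure D1:**
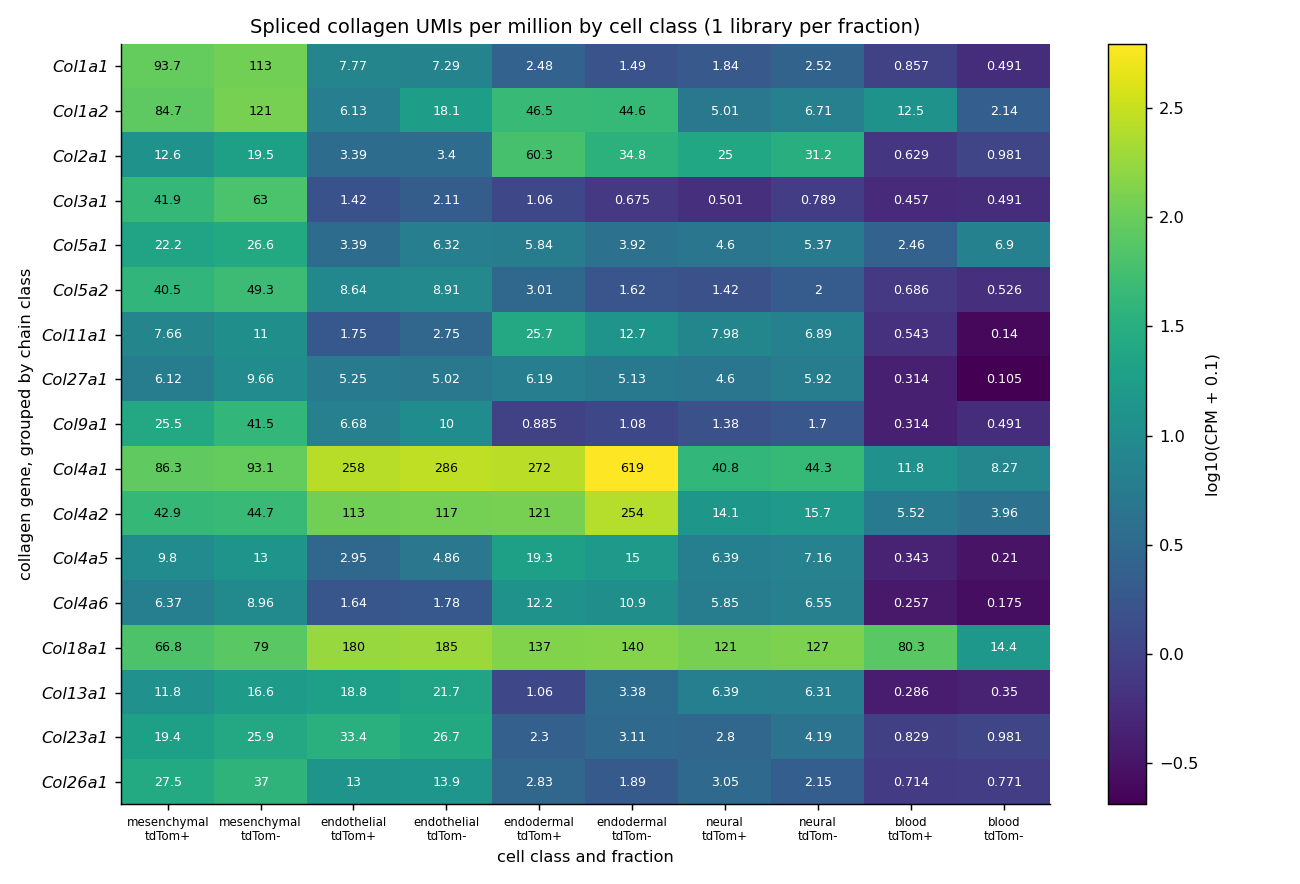
Heat map of the 17 collagen genes with at least 1000 spliced UMIs (rows) in the 5 cell classes of both fractions (columns), with the CPM of spliced UMIs printed in each cell and coloured as log10(CPM + 0.1). *Col4a1* reaches 619 CPM in tdTom- endodermal cells, and *Col1a1* stays under 10 CPM in the 4 classes other than mesenchyme.

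*Col1a1* and *Col1a2* encode the chains of type I collagen, the main fibre of later skin and bone, which joins 2 chains of the first with 1 of the second. *Col1a1* (chromosome 11, 94936224 to 94953042, plus strand, GRCm38; ENSMUSG00000001506) had 8683 spliced UMIs, and *Col1a2* (chromosome 6, 4504814 to 4541544, plus strand; ENSMUSG00000029661) had 10924. In mesenchymal cells *Col1a1* was at 93.7 and 113 CPM, and in endothelial cells at 7.77 and 7.29 CPM. In endodermal cells it was at 2.48 and 1.49 CPM, in neural cells at 1.84 and 2.52 CPM, and in blood at 0.857 and 0.491 CPM. *Col1a1* was thus more than 10 times higher in mesenchymal cells than in any other of the 5 classes, in each library.

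*Col1a2* reached 84.7 and 121 CPM in mesenchymal cells, but in some other cells it was found with little *Col1a1*. In endodermal cells *Col1a2* was at 46.5 and 44.6 CPM, in endothelial cells at 6.13 and 18.1 CPM, in neural cells at 5.01 and 6.71 CPM, and in blood at 12.5 and 2.14 CPM. Most of the endodermal UMIs came from the gut endoderm-like cluster led by *Pyy* and *Spink1*, where *Col1a2* was at 72.2 (63.4 to 81.9) and 100.1 CPM (89.1 to 112), while *Col1a1* was at 2.67 and 1.01 CPM. The neural crest-like cluster held the same combination, with *Col1a2* at 37.4 and 48.6 CPM and *Col1a1* at 2.16 and 1.01 CPM. Of the UMIs of both genes, *Col1a1* gave 52.5% (51.4% to 53.6%) and 48.1% (47.0% to 49.2%) in mesenchymal cells. It gave 5.05% (2.79% to 8.33%) and 3.23% (1.62% to 5.70%) in endodermal cells, and 5.47% (2.23% to 10.9%) and 2.04% (0.559% to 5.14%) in neural crest. Over the 44 combinations of cluster and fraction with at least 30 UMIs of the pair, that share ran from 0.997% to 67.1%, with a median of 32.7%.

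**Figure D2:**
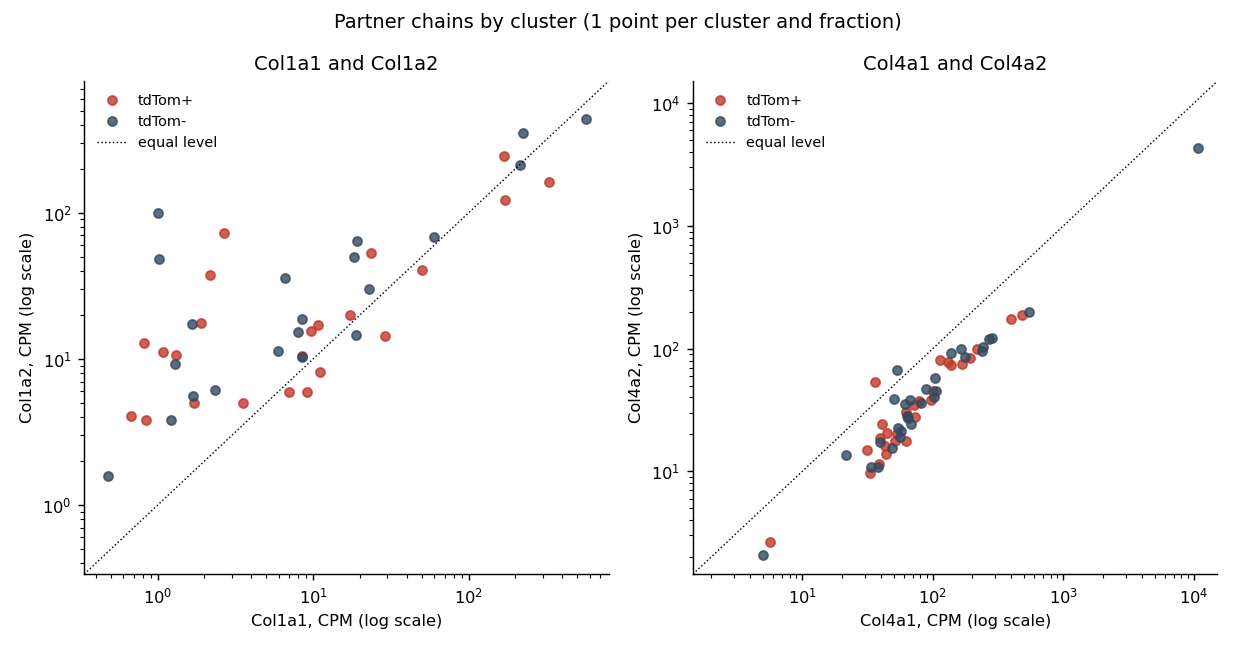
Levels of partner chains in each cluster and fraction (1 point each, CPM on log scales, dotted line at equal levels), for type I collagen on the left and type IV on the right. Type IV points lie along a line below the diagonal, apart from the 2 points of a surface ectoderm-like cluster above it, whereas several points at about 1 to 3 CPM of *Col1a1* hold between 37.4 and 100.1 CPM of *Col1a2*.

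The promoter of *Col1a2* is shown because *Col1a2* is a member whose level differs from that of its partner and between the fractions. It is the RefSeq window of 250 bases before to 50 bases after the start site at 4505618 (GRCm38.p6, chr6:4505368-4505667, plus strand), and capitals mark CCAAT on either strand:

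Col1a2: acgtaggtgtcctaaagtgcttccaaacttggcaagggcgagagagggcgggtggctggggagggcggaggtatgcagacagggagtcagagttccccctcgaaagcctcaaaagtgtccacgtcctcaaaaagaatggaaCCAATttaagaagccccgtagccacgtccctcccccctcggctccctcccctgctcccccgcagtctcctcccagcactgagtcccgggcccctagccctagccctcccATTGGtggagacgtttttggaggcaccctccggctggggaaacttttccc

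CCAAT, searched on both strands, occurred 2 times in this window, and 12289 of 32851 windows of the same length (37.4%) held it at least once. The site that GATA factors bind was searched on both strands as AGATAA or AGATAG and also as TGATAA or TGATAG, and it occurred 0 times, beside 29.8% of all windows with at least 1. A match or its lack in 300 bases is a description of these letters.

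Mesenchymal cells were themselves uneven. Lateral plate and extraembryonic mesenchyme shared 1 marker list, so a cluster named from it could be either. Among mesenchymal clusters that hold both fractions, *Col1a1* was highest in such a cluster led by *Anxa2* and *Tagln*, at 327 and 569 CPM. It was next in another such cluster, led by *Tdo2* and *Hsd11b2*, at 169 and 224 CPM. It was at 10.7 and 6.59 CPM in cranial and pharyngeal mesenchyme-like cells. *Col3a1*, the chain of type III collagen of soft tissue (4336 UMIs), had the opposite order of these clusters, at 169 and 276 CPM in the cluster led by *Tdo2* and 69.0 and 172 CPM in the one led by *Anxa2*. It was at 41.9 and 63.0 CPM over the mesenchymal class, but at 2.11 CPM or less in the 4 other classes. *Col5a2* (4309 UMIs), whose type V collagen sets the width of fibrils, was at 40.5 and 49.3 CPM in mesenchymal cells and at 8.91 CPM or less in the 4 other classes, while the cardiomyocyte-like cluster led by *Sfrp5* had 19.0 and 40.8 CPM. Its partner *Col5a1* (3590 UMIs) was at 22.2 and 26.6 CPM in mesenchymal cells, at 3.39 to 6.32 CPM in endothelial, endodermal and neural cells, and at 2.46 and 6.90 CPM in blood.

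*Col2a1*, the chain of cartilage collagen that the notochord also makes (7946 UMIs), had its highest levels outside the mesenchyme. It was at 303 (287 to 320) and 357 CPM (335 to 379) in the cardiomyocyte-like cluster led by *Actc1*, and at 215 and 199 CPM in notochord-like cells. Cranial and pharyngeal mesenchyme-like cells had 124 and 127 CPM. Among the 5 classes it was highest in endodermal cells, at 60.3 and 34.8 CPM, then in neural cells, at 25.02 and 31.2 CPM. *Col11a1* (1953 UMIs), which joins type II fibrils, was also highest in endodermal cells among the 5 classes, at 25.7 and 12.7 CPM, and was at 7.66 and 11.04 CPM in mesenchymal cells. By cluster it was at 16.1 and 42.3 CPM in the mesenchymal cluster led by *Anxa2*. Notochord-like cells had 20.6 and 57.9 CPM of it, from 12 and 30 UMIs. *Col27a1* (1380 UMIs) lay between 4.60 and 9.66 CPM in the mesenchymal, endothelial, endodermal and neural classes, and at 27.5 and 19.3 CPM in notochord-like cells, from 16 and 10 UMIs. The other fibrillar genes were sparse, with 124 UMIs of *Col11a2*, 128 of *Col24a1* and 20 of *Col5a3*, and at most 0.97 CPM in any of the 5 classes.

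Of the basement membrane genes, *Col4a1* (24929 UMIs; chromosome 8, 11198423 to 11312826, minus strand; ENSMUSG00000031502) and *Col4a2* (11058 UMIs; 11312805 to 11449287, plus strand; ENSMUSG00000031503) make the type IV network found in nearly all basement membranes. *Col4a1* was at 258 and 286 CPM in endothelial cells and at 272 and 619 CPM in endodermal cells. It was at 86.3 and 93.1 CPM in mesenchymal cells, 40.8 and 44.3 CPM in neural cells, and 11.8 and 8.27 CPM in blood. *Col4a2* followed at 113 and 117 CPM in endothelial, 121 and 254 CPM in endodermal, 42.9 and 44.7 CPM in mesenchymal, 14.1 and 15.7 CPM in neural cells and 5.52 and 3.96 CPM in blood. Within endothelium, the cluster led by *Lyve1* had more of both than the larger endothelial cluster, with tdTom+ levels of *Col4a1* of 484 (448 to 522) against 217 CPM (207 to 228) and tdTom- levels of 550.4 (502 to 602) against 244 CPM (231 to 258).

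The 2 genes lie head to head, and the RefSeq start sites at 11312826 and 11312805 are 21 bases apart. Their promoter windows (GRCm38.p6, chr8:11312777-11313076 on the minus strand for *Col4a1* and chr8:11312555-11312854 on the plus strand for *Col4a2*) are shown because the levels of the pair ran together. Each is written 5′ to 3′ on its own strand, and capitals mark the 78 bases, 11312777 to 11312854, that both windows hold on opposite strands:

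Col4a1: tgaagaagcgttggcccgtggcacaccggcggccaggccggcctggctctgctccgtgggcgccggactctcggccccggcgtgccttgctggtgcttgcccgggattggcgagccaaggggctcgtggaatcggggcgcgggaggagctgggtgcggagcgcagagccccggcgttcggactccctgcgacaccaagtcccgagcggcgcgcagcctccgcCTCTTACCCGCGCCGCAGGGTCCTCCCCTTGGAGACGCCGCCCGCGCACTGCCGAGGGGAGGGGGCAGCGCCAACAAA

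Col4a2: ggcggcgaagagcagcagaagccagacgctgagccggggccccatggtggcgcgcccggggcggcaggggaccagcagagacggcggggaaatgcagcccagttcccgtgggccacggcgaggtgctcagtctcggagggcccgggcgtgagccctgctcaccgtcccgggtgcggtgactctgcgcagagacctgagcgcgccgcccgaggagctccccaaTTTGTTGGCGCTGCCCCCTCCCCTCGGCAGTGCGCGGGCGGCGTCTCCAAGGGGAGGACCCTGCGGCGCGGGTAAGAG

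CCAAT on either strand occurred 1 time in each window, and TATAAA in neither, beside 13.6% of all windows with at least 1 TATAAA. The GC box GGGCGG, on either strand, occurred 1 time in the window of *Col4a1* and 3 times in that of *Col4a2*, beside 35.7% of all windows with at least 1, and it was in 23 of the 38 windows (60.5%) found for 35 of the 44 genes.

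Across clusters, *Col4a1* gave a median of 2.29 UMIs for each UMI of *Col4a2*, over 57 combinations of cluster and fraction. In the 5 classes the ratio lay between 2.01 in tdTom+ mesenchymal and 2.89 in tdTom+ neural cells. Clusters ranged more widely. The lowest ratios were in a surface ectoderm-like cluster, at 0.67 and 0.80, and the highest in the presomitic-like cluster led by *Dll3*, at 3.54 in tdTom+ cells. Other clusters also lay outside the range of the classes. Spearman's rho between the 2 genes was 0.89 over 28 tdTom+ clusters and 0.86 over 32 tdTom- clusters, against 0.66 and 0.71 for *Col1a1* and *Col1a2*. These are descriptions only, since clusters of a library share its depth and its free RNA. The scatter of partner chains shows the contrast, a line for type IV and a cloud for type I.

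A cluster of 20 cells, all tdTom-, had all 6 markers of parietal endoderm, the cell layer that lays down Reichert's membrane. It held *Col4a1* at 10842 CPM (10440 to 11256) and *Col4a2* at 4332 CPM (4079 to 4596), and every one of its cells had UMIs of both. The ratio was 2.50, beside the median of 2.29 across clusters. Apart from 13 UMIs of *Col13a1*, 3 of *Col6a2* and 1 of *Col5a1*, no spliced UMI of any other collagen gene was found there, at 252994 spliced UMIs in all. Collagen genes made up 15242 CPM in these cells, and the 20 cells supplied 2743 of the 4585 *Col4a1* UMIs of tdTom- endodermal cells. In the other endodermal cells of the host *Col4a1* was at 258 CPM, beside 272 CPM in tdTom+ endodermal cells.

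*Col4a5* (2368 UMIs) and *Col4a6* (1831 UMIs), a second head-to-head pair on the X chromosome, were highest in endodermal cells among the 5 classes, *Col4a5* at 19.3 and 15.0 CPM and *Col4a6* at 12.2 and 10.9 CPM. The surface ectoderm-like cluster led by *Wnt6* and *Bhlha9* had more, 30.3 and 37.6 CPM of *Col4a5* and 27.3 and 32.5 CPM of *Col4a6*. In endothelial cells, where *Col4a1* was high, they were at 2.95 and 4.86 CPM and at 1.64 and 1.78 CPM. The ratio of *Col4a5* to *Col4a6* had a median of 1.10 over 36 combinations of cluster and fraction and ran from 0.65 to 3.05. *Col4a3* had 7 and *Col4a4* had 92 UMIs, so the network of the mature kidney filter, which both build with *Col4a5*, was not measurable here.

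*Col18a1* (28096 UMIs; chromosome 10, 77052178 to 77166548, minus strand; ENSMUSG00000001435), the gene of a proteoglycan core of basement membranes from which endostatin is released, was the most widely found member, with a spliced UMI in 11137 of the 17309 cells. It was at 180 and 185 CPM in endothelial, 137 and 140 CPM in endodermal, 121 and 127 CPM in neural and 66.8 and 79.0 CPM in mesenchymal cells. The endothelial cluster led by *Lyve1* had 347 and 326 CPM. In blood it was at 80.3 and 14.4 CPM. *Col15a1*, the other multiplexin, had 26 UMIs.

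To compare shares of cells at 1 depth, each cell was thinned to 5000 spliced UMIs. Then 27.0% (25.3% to 28.8%) and 25.3% (23.4% to 27.3%) of mesenchymal cells had a UMI of *Col1a1*, against 0.625% and 0.278% of blood cells, whose share is taken as the level of free RNA for this gene. Without thinning these shares were 47.7% and 42.1% in mesenchymal cells and 1.67% and 0.949% in blood, at median depths of 16994 and 15528 UMIs in mesenchymal and 21227.5 and 18925 UMIs in blood cells. *Col1a2* was in 14.8% and 12.1% of thinned endodermal cells (24.1% and 16.6% unthinned), while *Col1a1* was in 0.568% and 0.412% of them, which is at the level of blood. The blood shares of *Col1a2* were 5.69% and 0.905%. *Col4a1* was in 63.1% and 69.9% of thinned endothelial cells, against 5.44% and 4.11% of blood cells, and *Col18a1* was in 42.9% and 46.5% of thinned neural cells, against 30.8% and 6.61% of blood cells.

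The fibril-associated genes coat or bridge fibrils. *Col9a1* (3939 UMIs), a chain of type IX collagen of cartilage surfaces, was at 25.5 and 41.5 CPM in mesenchymal cells, 6.68 and 10.0 CPM in endothelial cells and 1.70 CPM or less in endodermal, neural and blood cells, and it reached 117 and 135 CPM in notochord-like cells. Its partner *Col9a3* (849 UMIs) had another distribution, at 13.98 and 8.64 CPM in endodermal and 1.73 and 2.47 CPM in mesenchymal cells. For each *Col9a3* UMI there were 45.3 UMIs of *Col9a1* in tdTom- cells of the cardiomyocyte-like cluster led by *Sfrp5*, but 0.10 in tdTom+ gut endoderm-like cells. *Col9a2* had 325 UMIs and *Col12a1* had 322, with at most 1.59 CPM in any of the 5 classes. *Col22a1* (265), *Col16a1* (211), *Col20a1* (17) and *Col19a1* (7) stayed at or under 1.43 CPM there, and *Col14a1* (168) was highest in endothelial cells, at 3.50 and 2.43 CPM.

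Among the transmembrane collagens, which stay in the cell membrane, *Col23a1* (2983 UMIs) was at 33.4 and 26.7 CPM in endothelial and 19.4 and 25.9 CPM in mesenchymal cells, and *Col13a1* (2784 UMIs), found at cell adhesion sites, at 18.8 and 21.7 CPM and at 11.8 and 16.6 CPM. *Col25a1* had 76 and *Col17a1*, of the anchors of epidermis, 26 UMIs. *Col26a1* (4415 UMIs) was at 27.5 and 37.0 CPM in mesenchymal cells, with 127 and 147 CPM in cranial and pharyngeal mesenchyme-like cells, and at 82.6 and 87.7 CPM in the somitic-like cluster led by *Tcf15*. Type VI genes form beaded filaments in most later connective tissue, and were sparse: *Col6a1* had 361 and *Col6a2* had 260 UMIs, at most 2.68 CPM in any of the 5 classes, *Col6a3* had 34, *Col6a4* had 7 and *Col6a6* had 5. The short-chain network genes *Col8a2* (45), *Col8a1* (39) and *Col10a1*, the collagen of growth-plate cartilage (7), were close to 0 in the 5 classes. *Col28a1* had 5 UMIs. *Col7a1* (578 UMIs), of the anchoring fibrils of skin, was highest in blood among the 5 classes, at 3.54 and 5.26 CPM.

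The next comparison asked where *Gata1*- and host cells differed, as the log2 fold of tdTom+ over tdTom- for genes with at least 100 spliced UMIs in a class. In mesenchymal cells 21 members could be compared, and 0 were at least 2-fold higher or lower, where 0.239% and 0.57% of all 10874 genes compared were. All of the 21 except *Col22a1* (0.27, -0.33 to 0.88) had a fold below 0, with a median of -0.43 beside -0.03 over all genes. The share of all genes with a fold below 0 was not counted. *Col1a1* was at -0.26 (-0.33 to -0.20), *Col1a2* at -0.52 (-0.58 to -0.46), *Col3a1* at -0.59 (-0.68 to -0.50), *Col4a1* at -0.11 (-0.18 to -0.04) and *Col4a2* at -0.06 (-0.16 to 0.04). *Col9a1* had the lowest value, -0.70 (-0.82 to -0.59). The fractions hold different shares of the 8 mesenchymal clusters. Summed over the clusters that hold both fractions, the median over 19 members was -0.40, but the shares of these clusters also differ. Cluster by cluster, the folds of *Col1a2* there ran from -0.53 in the one led by *Tdo2* and *Hsd11b2* to -1.42 in the one led by *Anxa2*.

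In endothelial cells 1 of 10 members, *Col1a2*, was at least 2-fold lower in tdTom+ cells, beside 0.449% of all genes, and 0 were at least 2-fold higher, beside 0.15%. *Col1a2* had 56 UMIs in tdTom+ and 112 in tdTom- endothelial cells, a log2 fold of -1.57 (-2.06 to -1.09). With the called doublets kept it was -0.96, and after thinning -1.56. In these cells the 7 markers of lateral plate and extraembryonic mesenchyme summed to 125 and 139 CPM. The 8 of cranial mesenchyme summed to 260 and 268 CPM and the 6 of allantois to 145 and 132 CPM, with 0 markers at 0. *Col1a1* was at 0.09 (-0.47 to 0.66), *Col4a1* at -0.15 (-0.24 to -0.06) and *Col4a2* at -0.04 (-0.18 to 0.10). *Col3a1* had 26 UMIs in the class, too few to compare.

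In neural cells 16 members could be compared and 0 passed 2-fold in either direction, where 0.228% of all genes were higher and 0.522% lower. *Col1a1* was at -0.45 (-1.02 to 0.09), *Col1a2* at -0.42 (-0.75 to -0.09), *Col4a1* at -0.12 (-0.24 to -0.00) and *Col4a2* at -0.15 (-0.36 to 0.05). In endodermal cells 1 of 9 members was at least 2-fold higher in tdTom+ cells, beside 0.23% of all genes, and 2 were lower, beside 2.97%. The lower pair were *Col4a1*, at -1.19 (-1.27 to -1.10), and *Col4a2*, at -1.07 (-1.20 to -0.95). Without the 20 parietal endoderm-like cells they were at 0.08 (-0.02 to 0.18) and 0.14 (-0.01 to 0.29), but the gut endoderm-like clusters differed. In the one led by *Pyy* and *Spink1* the pair were at -0.30 (-0.46 to -0.15) and -0.19 (-0.43 to 0.06). In the one led by *Nepn* and *Apela* they were at 0.57 (0.42 to 0.71) and 0.52 (0.29 to 0.74). The higher gene was *Col11a1*, with 145 and 94 UMIs, at 1.02 (0.63 to 1.41). It was at 0.97 without the parietal endoderm-like cells and 0.74 summed over the clusters that hold both fractions. Within the cluster led by *Pyy* and *Spink1* alone, with 138 and 86 of its UMIs, it was at 0.51 (0.11 to 0.91). *Col1a2* was at 0.06 (-0.18 to 0.30) over the class. In the gut endoderm-like cluster led by *Pyy* and *Spink1*, which held most of its UMIs, it was at -0.47 (-0.72 to -0.22). The plot of folds by class sets these values side by side.

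**Figure D3:**
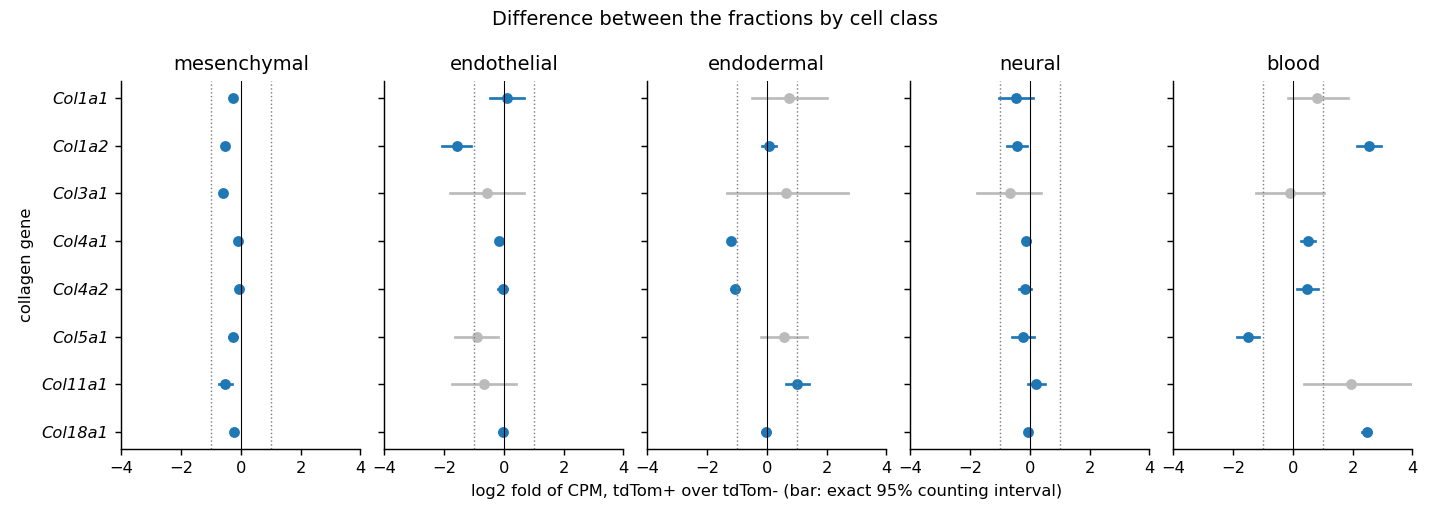
Log2 fold of CPM, tdTom+ over tdTom-, of 8 collagen genes in each cell class. Bars are exact 95% counting intervals, dotted lines mark 2-fold, and grey points have under 100 UMIs. *Col1a2* lies at -1.57 in endothelial cells and at 2.55 in blood, and *Col4a1* and *Col4a2* lie to the left of -1 only in endodermal cells.

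*Col1a2* was also followed cluster by cluster. Among the 25 clusters in which between 25% and 75% of cells were tdTom+, 13 had at least 100 UMIs of *Col1a2*, and it was lower in tdTom+ cells in 11 of them, each with an interval below 0. The median fold was -0.59. The lowest folds of *Col1a2* were in the cardiomyocyte-like cluster led by *Sfrp5*, at 15.4 and 49.7 CPM (-1.69, -2.05 to -1.34), the endothelial cluster led by *Etv2*, at 5.95 and 18.8 CPM (-1.66, -2.20 to -1.14), and the mesenchymal cluster led by *Anxa2*, at 164 and 436 CPM (-1.42, -1.56 to -1.27). The exceptions were the neural cluster led by *Lhx2* and *Rax* (0.20, -0.45 to 0.82) and the presomitic-like cluster led by *Dll3* (0.02, -0.44 to 0.48). Of 7028 genes compared in at least 10 of these clusters, 53 (0.754%) had a median at or below that of *Col1a2*. Over all 7028 genes these medians had a median of -0.028, and how often genes in general were lower by cluster was not counted. *Col9a1* was lower in tdTom+ cells in 12 of 12 clusters (median -0.59), with 8 intervals below 0, and *Col3a1* in 6 of 6 (median -1.02), with 5. *Col4a1* was lower in 18 of 24 clusters, with a median of -0.12, and *Col18a1* in 18 of 24, with -0.12. All clusters of a fraction come from 1 library, so they are not replicates of the difference. A library-wide difference such as the line cannot be told apart from the loss of *Gata1*. The labelled days differ, although both fractions were sorted from the same embryos.

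**Figure D4:**
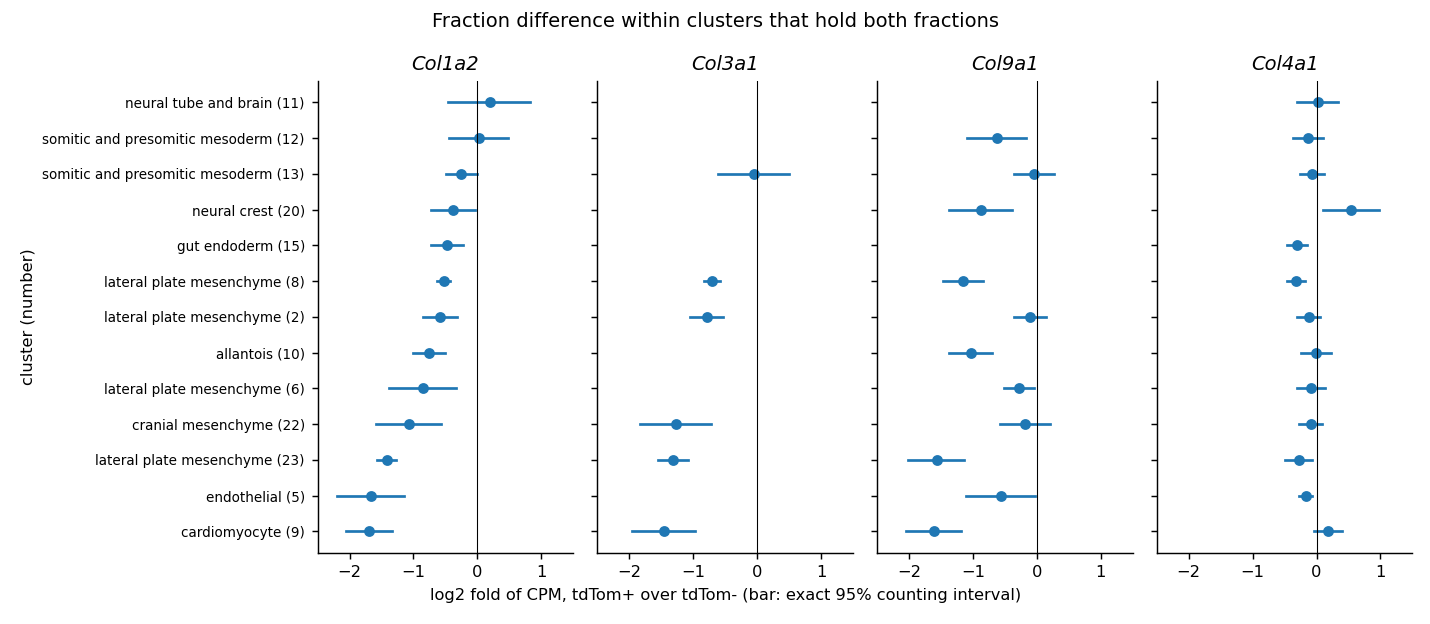
Log2 fold of CPM, tdTom+ over tdTom-, within the 13 clusters that hold both fractions and at least 100 UMIs of *Col1a2*. Bars are exact 95% counting intervals, and a gene without a point has under 100 UMIs in that cluster. On the axis, lateral plate mesenchyme stands for lateral plate and extraembryonic mesenchyme. Points of *Col1a2*, *Col3a1* and *Col9a1* lie mostly left of 0, with *Col1a2* reaching -1.69, while those of *Col4a1* lie near 0, with the neural crest-like cluster higher.

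In blood, 2 of 6 members were at least 2-fold higher in tdTom+ cells, beside 11.4% of all genes, and 1 was lower, beside 3.17%. The median fold of all genes was 0.22. *Col18a1* had 2810 UMIs in tdTom+ and 412 in tdTom- blood, a fold of 2.48 (2.33 to 2.63), and *Col1a2* had 438 and 61, a fold of 2.55 (2.16 to 2.96). *Col5a1* had 86 and 197, a fold of -1.49 (-1.87 to -1.12), or -1.45 after thinning. *Col4a1* was at 0.51 (0.28 to 0.75) and *Col4a2* at 0.48 (0.14 to 0.83). In no blood cluster were between 25% and 75% of cells tdTom+, so the values compare progenitors with erythroid cells, and cell state and genotype cannot be told apart. In the third blood cluster, which is led by *Fcer1g* and *Spi1* and holds 286 tdTom+ and 83 tdTom- cells, *Col18a1* was at 129.9 (121 to 140) and 128 CPM (111 to 148), and *Col1a2* at 11.1 (8.54 to 14.3) and 11.5 CPM (6.72 to 18.5). Unlike in the class, *Col4a1* was lower in tdTom+ cells of that cluster, at 44.2 and 67.1 CPM (-0.60, -0.95 to -0.25). So was *Col4a2*, at 20.7 and 38.0 CPM (-0.88, -1.35 to -0.39). The 9 endothelial markers summed to 78.4 and 52.9 CPM in blood. The 7 of lateral plate and extraembryonic mesenchyme summed to 23.6 and 7.40 CPM, with 0 markers of either list at 0. The part of such RNA in the blood values was not tested.

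Free RNA keeps the genes of a library in 1 ratio, so each gene's level in the 2 large blood clusters was set against its level in all cells outside blood of the same library. Of 19 members with at least 500 UMIs, 17 in the tdTom- erythroid cluster were at 1.34% to 7.51% of that level, and *Col5a1* (51.0%, 44.0% to 58.7%) and *Col7a1* (402%, 340% to 472%) stood above it. In the tdTom+ progenitor cluster 15 were at 1.08% to 6.26%, and *Col7a1* (336%, 279% to 401%), *Col18a1* (68.4%, 65.5% to 71.4%), *Col1a2* (31.6%, 28.5% to 35.0%) and *Col5a1* (18.7%, 14.8% to 23.3%) stood above it. *Col7a1* was at 5.52 CPM in the tdTom- cluster against 1.37 CPM in the other cells, and at 4.15 against 1.24 CPM in tdTom+ cells. The 2 clusters held 122 and 149 of its 578 UMIs, so it passed the minimum of 500 only through blood. Its higher level there is a description and not independent of that minimum.

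Both layers were used for the last comparison, the share of unspliced UMIs, which carry intron sequence. It was 32.2% (31.9% to 32.5%) in mesenchymal, 34.9% (34.2% to 35.6%) in endothelial, 37.5% (36.9% to 38.1%) in neural, 26.8% (25.8% to 27.8%) in blood and 21.9% (21.3% to 22.5%) in endodermal cells, and 25.5% in endodermal cells without the parietal endoderm-like cells. Over all genes of each class and fraction the share was between 9.90% and 14.8%. Genes differed far more than classes. Over all kept cells the 17 genes with at least 1000 UMIs ran from 1.58% for *Col1a1* to 85.6% for *Col4a6*. *Col4a1* was at 17.4% and *Col4a2* at 24.3%, *Col1a2* at 8.66%, *Col3a1* at 9.19%, *Col18a1* at 24.2%, *Col5a2* at 51.1%, *Col4a5* at 72.7% and *Col23a1* at 75.2%. Long genes had the larger shares: Spearman's rho between the share and the length of the gene was 0.89 over these 17 genes, which are not independent replicates. *Col1a1* spans 16.8 kb and *Col4a6* spans 309 kb.

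**Figure D5:**
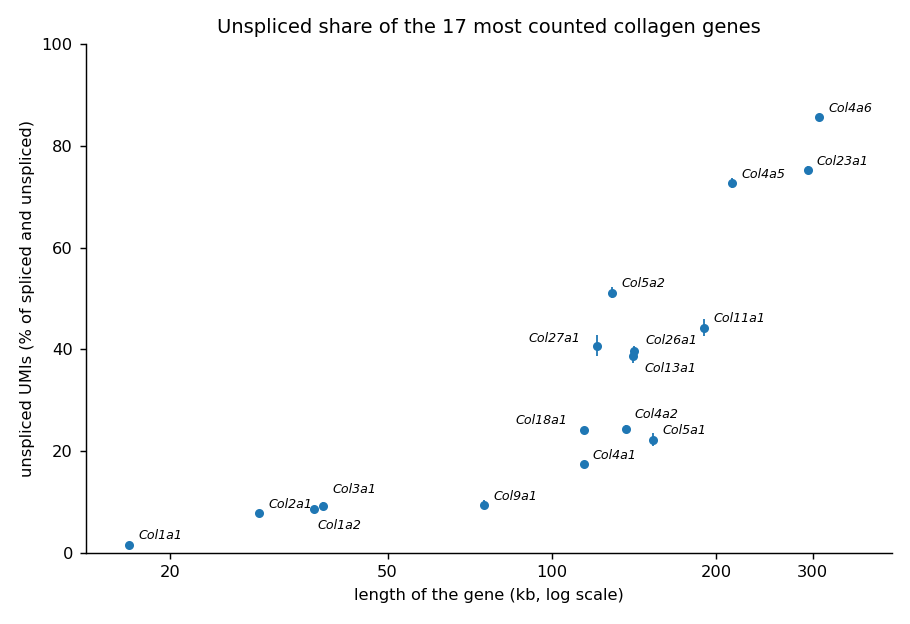
Unspliced share of UMIs against the length of the gene (log scale) for the 17 collagen genes with at least 1000 spliced UMIs in kept cells. Bars are exact 95% counting intervals, mostly smaller than the points, and the shares climb from 1.58% for *Col1a1* to 85.6% for *Col4a6*.

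Within a gene the range between classes was narrower. That of *Col4a1* was 23.2% and 22.5% in endothelial cells, 17.4% and 18.8% in mesenchymal cells and 13.7% and 10.9% in endodermal cells. *Col18a1* was at 27.9% and 28.9% in endothelial and at 17.2% and 18.8% in endodermal cells, and in blood at 28.2% and 28.7%. *Col1a2* was at 8.32% and 9.62% in mesenchymal, 4.71% and 4.62% in endodermal cells and 5.60% in tdTom+ blood.

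A list of 63 other genes of the pathway covers chain modification, secretion, cross-linking, basement membrane partners, fibril partners and receptors. It was compared in the same way as the collagen genes. In mesenchymal cells 1 of 46 was at least 2-fold lower, beside the 0.57% of all genes given above, *Ddr2*, a receptor for fibrillar collagen, at 1.73 and 4.33 CPM (-1.32, -1.75 to -0.91). In endothelial cells 0 of 33 and in neural cells 0 of 37 passed. In endodermal cells 5 of 31 were lower, the laminin chains *Lama1*, *Lamb1* and *Lamc1*, the laminin linker *Nid1* and the collagen-binding *Sparc*, beside the 2.97% of all genes, and 0 of 28 passed without the parietal endoderm-like cells. *Nid1*, at 4.95 and 56.2 CPM, had the largest of these folds, -3.50 (-4.11 to -2.95). In blood 10 of 28 were higher in tdTom+ cells, beside the 11.4% of all genes given above, and 2 were lower, beside 3.17%, with a median of 0.67 over the list. The chaperone of procollagen folding *Serpinh1* was at 76.2 and 32.5 CPM (1.23, 1.12 to 1.34), and the prolyl hydroxylation partner *Crtap* at 7.66 and 2.63 CPM (1.54, 1.17 to 1.93). *Nid1* (-1.25, -1.68 to -0.83) and *P3h2* (-1.24, -1.82 to -0.69) were the lower genes.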

How the data were processed

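The authors aligned the droplet reads with Cell Ranger 3.0.2 (submitters' processing notes; build mm10, GRCm38) and split the reads of each barcode into a spliced and an unspliced layer with velocyto. They deposited raw UMI counts of 29453 genes per cell for both layers, and a cell table with the percent of mitochondrial counts. All 8981 tdTom+ and 9252 tdTom- barcodes in the tables entered before doublet removal. They are more than the study describes as passing its quality control, and that filter was not applied here. 0 columns of sample values were left unmatched.

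Cells were scaled to 10000 UMIs, and the first 50 principal components of 2094 variable genes were clustered (Python 3.11.15, scanpy 1.11.5, leidenalg 0.10.2, 20 neighbours, resolution 1.5), leaving out 107 genes of the collagen and pathway lists. Doublets called by Scrublet (377 tdTom+, 518 tdTom-) and 1 cluster mostly of doublets were left out. Clusters were named from at least 3 raised markers, and 2 stayed unnamed. Spliced UMIs were summed per library and class and divided by the total of the same cells. Intervals are exact Poisson for levels, Clopper-Pearson for shares and conditional binomial for folds. They cover counting error only. Folds needed 100 UMIs in a class, and a fold of 2 is a rule of size, not a test, since each fraction is 1 library. The count and fold steps were checked on simulated data.

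Named were all 44 members with their UMIs, the levels of those with 1000 or more UMIs, 5 type I, III and IV genes in each class, members past 2-fold, partner chains and a list of 63 pathway genes. Members and lists were chosen with earlier results of these data known. Promoters came from RefSeq (GRCm38.p6), which matched 35 of 44 members. Alternatives were size factors, doublets kept, resolution 1, thinning to 5000 UMIs, both layers added, blood levels subtracted, other UMI minimums and clusters that hold both fractions, and, chosen after seeing the data, leaving out the parietal endoderm-like cluster or the neural cluster led by *Epha5* and taking only mesenchymal clusters that hold both fractions.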

Additional observations from a re-analysis of the deposited data

Results flagged for a closer look

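*Col1a2* moved in opposite directions between the fractions in different classes. Its log2 fold of tdTom+ over tdTom- was -1.57 in endothelial cells, from 56 and 112 UMIs, and 2.55 in blood, from 438 and 61 UMIs. The difference between these classes was not tested, since each fraction is 1 library, and in blood the fractions hold unlike cells.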

How the results depend on the processing

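No paired analysis was possible because each fraction is 1 library and there is nothing to pair. The log2 level of mesenchymal over endothelial cells, -0.01 as reported, was -0.11 with size factors, 0.085 at resolution 1, where its sign turned, -0.11 after thinning and -0.071 with both layers added. Mesenchymal over endodermal was -0.41 with size factors, -0.42 at resolution 1, -0.62 after thinning, -0.29 with both layers added, -0.59 with blood levels subtracted and -0.025 without the parietal endoderm-like cluster (chosen after seeing the data). Over neural it was 1.29 with doublets kept, 1.41 at resolution 1, 1.21 with both layers added, 1.60 with blood levels subtracted and 1.26 without the neural cluster led by *Epha5* (chosen after seeing the data), and over blood 2.53 with size factors, 2.89 with doublets kept, 3.03 at resolution 1 and 3.01 with both layers added. Size factors moved the median of all genes by -0.43 for mesenchyme over blood and by -0.25 for tdTom+ over tdTom- blood. Of members past 2-fold, the count of endothelial genes lower in tdTom+ cells, 1, was 0 with doublets kept and 0 after thinning, where the fold of *Col1a2* was -1.56 and it missed only the UMI minimum. The endodermal count higher in tdTom+, 1, was 0 after thinning, 0 with both layers added, 0 in clusters that hold both fractions and 0 without the parietal endoderm-like cluster, and the count lower, 2, was 0 in both of the latter. The blood count lower in tdTom+, 1, was 0 after thinning, where *Col5a1* was at -1.45 and likewise missed only the minimum. With a minimum of 30 UMIs 2 of 28 mesenchymal members were lower, beside 1.54% of all genes, and 3 of 14 endodermal members, beside 4.48%. With 1 UMI the counts higher and lower were 1 and 6 of 43 mesenchymal members, beside 6.83% and 11.5% of all genes. They were 0 and 7 of 35 endothelial members, beside 8.12% and 12.6%, and 8 and 5 of 37 endodermal members, beside 9.31% and 11.5%. Neural cells had 2 and 3 of 36, beside 10.0% and 7.53%, and blood 7 and 5 of 34, beside 19.2% and 11.2%. The unspliced share was 31.5% in mesenchymal cells at resolution 1 and 25.5% in endodermal cells without the parietal endoderm-like cluster, and 35.6% in neural cells without the cluster led by *Epha5*. In endodermal cells *Col4a1* turned to 0.087 and *Col4a2* to 0.12 in clusters that hold both fractions, and to 0.080 and 0.14 without the parietal endoderm-like cluster, and the last shows that these 20 cells carried both folds. The other causes were not tested. Blood had no cluster that holds both fractions in this range, and subtracting blood gives no value for blood itself. Of the values for single genes, 34 stayed within counting error of the reported one, 4 moved beyond it and 4 turned sign. Those that moved were *Col1a2* in endothelial cells with doublets kept (-0.96) and *Col18a1* in blood with size factors (2.23). The others were *Col4a1* (-1.28) and *Col4a2* (-1.25) in endodermal cells after thinning. Those that turned sign were the endodermal values of *Col4a1* and *Col4a2* given above.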

Other observations

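Lateral plate or extraembryonic mesenchyme-like cells included a pair of clusters made almost wholly of 1 fraction each. One held 358 tdTom+ and 2 tdTom- cells and the other 243 tdTom- cells. Both also had 5 allantois markers raised, and their values were looked at after the clusters had been seen. *Col1a1* was at 172 CPM in the first and 215 CPM in the second, a log2 difference of -0.32 (-0.45 to -0.18). *Col1a2* was at 123 and 211 CPM (-0.78, -0.92 to -0.64) and *Col9a1* at 14.4 and 28.7 CPM (-0.99). *Col4a1*, at 101 and 105 CPM, and *Col18a1*, at 84.2 and 82.7 CPM, were close in both.

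The genes within 500 kb of *Col1a2* on chromosome 6 were listed because that gene stood out, so they were chosen after its values were seen. In mesenchymal, endothelial and neural cells the log2 folds of tdTom+ over tdTom- were 1.29, 0.96 and 1.07 for *Peg10*, an imprinted gene. They were 0.15, 0.13 and 0.89 for *Sgce*, which is also imprinted, -0.30, -0.53 and -0.19 for *Casd1*, and -1.10, -0.57 and -0.10 for *Ppp1r9a*. *Gng11* was at -0.41, -0.13 and 0.27, and *Bet1* at -0.07, 0.08 and 0.04. The neighbours thus lay on both sides of 0, with the folds of *Peg10* and *Sgce* above it and of *Casd1* and *Ppp1r9a* below it in each of these classes. The intervals of *Sgce* in endothelial cells (-0.13 to 0.38) and of *Ppp1r9a* in neural cells (-0.21 to 0.01) included 0. Whether the genes other than *Peg10* and *Sgce* are imprinted is not considered here.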
